A study of Rattus norvegicus with 15 samples.

Results

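The gene *Ttr*, which encodes transthyretin, was followed in the inferior colliculus (IC) together with genes that mark the epithelium of the choroid plexus. The list held 10 genes, *Ttr*, *Rbp4*, *Aqp1*, *Kcnj13*, *Clic6*, *Slc4a5*, *Cldn2*, *Folr1*, *Kl* and *Otx2*, and each was read through the probe set that carries its symbol in the array annotation, the brightest one where a gene had several. Of these 10 genes, 9 were measured, each by 1 probe set, among 14506 genes measured under a name. No probe set carried *Otx2* as its only symbol, and it is not analysed here.

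The choroid plexus is a sheet of epithelium in the ventricles of the brain that secretes the cerebrospinal fluid. Its cells make transthyretin, the carrier of thyroxine and of the complex of retinol with retinol binding protein, in very large amounts, whereas neurons and glia of the brain make little. A trace of choroid plexus in a dissected piece of brain can therefore carry a large share of its *Ttr* transcripts, and the other genes of the same epithelium would be carried along with it.

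Expression in the IC of male rats, 12 weeks old, was read on Affymetrix arrays of rat genes. The groups were 5 arrays of the Wistar Audiogenic Rat (WAR), a strain selected for seizures evoked by loud sound, after an acoustic stimulus (WAR S), 2 arrays of stimulated Wistar rats (Wistar S), 4 arrays of WAR without a stimulus (WAR N) and 4 arrays of Wistar rats without a stimulus (Wistar N). The IC was taken 60 min after the stimulus, and by the study's methods stimulated WAR had seizures whereas stimulated Wistar rats did not. Both strains are albino rats of Wistar origin with no transgene, and the sources differ on their origin. The labels name a different provider for each strain, whereas the study's methods name 1 animal facility for both, and if the labels hold, strain and colony of origin cannot be told apart. Labels and methods differ on the number of stimulated animals, the label of each array was followed, and no source used here says whether 1 array holds the RNA of 1 rat. The protocol text deposited with the arrays describes sound exposure for every rat, so that the naïve state of WAR N and Wistar N rests on the label of each array alone.

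Values are log2 values, so a difference of 1 is a factor of 2, and they come from a whole piece of tissue, in which fewer cells of a type and less RNA per cell cannot be told apart. The stimulated and the naïve arrays had been normalized apart, which was read from the 2675 to 3286 probe sets with identical values in each pair of stimulated arrays and their absence between stimulated and naïve arrays. Strains were therefore compared within the stimulated and within the naïve arrays only. Pairs of naïve arrays shared 2 to 13 identical values, so such counts do not show that the naïve arrays were normalized together. The median over all probe sets was 7.0847 to 7.1445 on WAR N and 7.0061 to 7.0754 on Wistar N arrays. This offset is part of every naïve log2 fold change. On stimulated arrays the median was 7.2140 to 7.2658 for WAR S and 7.2053 to 7.2237 for Wistar S. Markers of IC neurons were bright on all arrays, with log2 values of 10.85 to 12.01 for *Slc17a6*, the vesicular glutamate transporter of the midbrain, and 9.70 to 11.12 for *Gad1*, an enzyme of GABA synthesis. Wistar N replicate 1 stood apart from its group. Its correlation with the other Wistar N arrays, over all genes after removal of the mean of the naïve arrays, ran from −0.64 to −0.45, against −0.02 to 0.42 with WAR N arrays, and for 32.7% of genes it lay nearer to the other Wistar N arrays than to the WAR N arrays. For each of the other Wistar N arrays this share was 65.25% to 70.25%. Of the 20 genes with the widest gap between the strains in the stimulated arrays, 13 placed it nearer to the other Wistar N arrays, against 17 to 19 for each of those arrays. The label was kept, and the tests, list counts and naïve relations that this array moves are given with and without it.

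Sequence upstream of the start site is shown for *Ttr* and *Kcnj13*, the members whose stimulated groups did not overlap, to show whether both hold a motif of the bicoid type, which OTX2, a homeodomain factor of the choroid plexus, is known to bind. Each run gives 250 bases upstream of the start site, from RefSeq (build GRCr8), 5′ to 3′ on the strand of the gene, chr18:12218508-12218757 on the plus strand for *Ttr* and chr9:95518987-95519236 on the minus strand for *Kcnj13*, and capitals mark a match to TAATCC or TAATCT on either strand.
Ttr: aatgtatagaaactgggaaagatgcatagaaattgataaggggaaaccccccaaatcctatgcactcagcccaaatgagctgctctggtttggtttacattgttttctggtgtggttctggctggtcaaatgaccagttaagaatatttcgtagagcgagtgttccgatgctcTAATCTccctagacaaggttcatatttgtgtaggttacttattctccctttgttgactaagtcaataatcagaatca
Kcnj13: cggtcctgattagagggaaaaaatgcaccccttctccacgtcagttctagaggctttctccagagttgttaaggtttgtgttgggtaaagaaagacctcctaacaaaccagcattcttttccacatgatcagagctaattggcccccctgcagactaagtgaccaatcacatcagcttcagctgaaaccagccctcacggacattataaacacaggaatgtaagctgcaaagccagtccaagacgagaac
The *Ttr* sequence held 1 match, TAATCT, whose first base lies at position −77 counted from the annotated start site, and the *Kcnj13* sequence held none. Whether the annotated start sites are those used in the IC was not tested. The table of promoters held 6 of the 10 listed genes, of which *Ttr* was the 1 gene with a match. Over 33469 rat promoters of the same length, 13.5% held a match.

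*Ttr* (probe set 10800426) was among the dimmer genes of the IC. It lay below the lower quartile of the named genes on 12 of 15 arrays, and the 3 arrays on which it was above that quartile were Wistar S replicates 1 and 2 and Wistar N replicate 1. *Kcnj13* and *Cldn2* lay below the lower quartile on all 15 arrays, *Clic6* on 2 arrays, *Slc4a5* on 1 array, and *Rbp4*, *Aqp1*, *Folr1* and *Kl* on 0 arrays. Signal over background was not measured here, so the share of background in the value of a gene this dim is not known.

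In the stimulated arrays, the log2 value of *Ttr* was 5.39, 5.55, 5.83, 5.61 and 5.57 in WAR S replicates 1 to 5, against 6.26 and 6.70 in Wistar S replicates 1 and 2. All WAR S arrays lay below both Wistar S arrays. WAR S averaged 5.59 ± 0.16 (SD, n = 5), against 6.48 ± 0.31 for Wistar S (SD, n = 2), and the log2 fold change of −0.89 (SE 0.28, 95% confidence interval −1.48 to −0.29) had an adjusted p of 0.301 by limma with Benjamini-Hochberg adjustment over all genes. By a 2-sided exact permutation test p was 0.0476, and the 21 splits of 5 and 2 arrays allow no smaller value. *Ttr* had been chosen for follow-up by the study on its stimulated arrays, so this direction is not independent evidence. The study's follow-up went the other way. By quantitative reverse transcription PCR the paper reports higher *Ttr* in WAR than in Wistar rats, in both naïve and stimulated animals. It also reports stronger labeling of the protein in WAR than in naïve Wistar rats. Its authors prefer the PCR result to that of the arrays.

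The naïve arrays gave no such separation. The log2 value of *Ttr* was 5.43, 5.31, 5.26 and 5.32 in WAR N replicates 1 to 4, against 6.50, 5.17, 5.37 and 5.10 in Wistar N replicates 1 to 4. Wistar N replicate 1 was higher than all others, and the remaining 3 Wistar N arrays overlapped with the WAR N arrays. WAR N averaged 5.33 ± 0.07 (SD, n = 4), against 5.54 ± 0.65 for Wistar N (SD, n = 4), with a log2 fold change of −0.21 (SE 0.23, limma adjusted p = 0.571, exact permutation p = 0.914). Without Wistar N replicate 1 the direction turned, with a log2 fold change of 0.12 (SE 0.11, limma adjusted p = 0.449).

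That single naïve array also set the outcome of the test in the stimulated arrays, since the groups share 1 estimate of the spread. Without Wistar N replicate 1, the log2 fold change of *Ttr* between WAR S and Wistar S was again −0.89, its SE was 0.12, and the limma adjusted p was 0.00213. The difference between the strain effects of stimulated and naïve arrays was −0.68 on the log2 scale (SE 0.36, limma adjusted p = 0.395) with all arrays, and −1.0045 (SE 0.17, limma adjusted p = 9.16e-04) without it.

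The 3 arrays with the highest *Ttr* of their part, Wistar N replicate 1 and Wistar S replicates 1 and 2, carry the running numbers 1, 2 and 3 of 1 label series, here label set 1, in their descriptions. Both Wistar S arrays belong to this set and none to the other, so stimulated rats of both strains can be compared within label set 1 only. There, 3 WAR S and 2 Wistar S arrays gave a log2 fold change of −0.98 (SE 0.36, limma adjusted p = 0.640), and no source calls the set a batch.

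**Figure D1:**
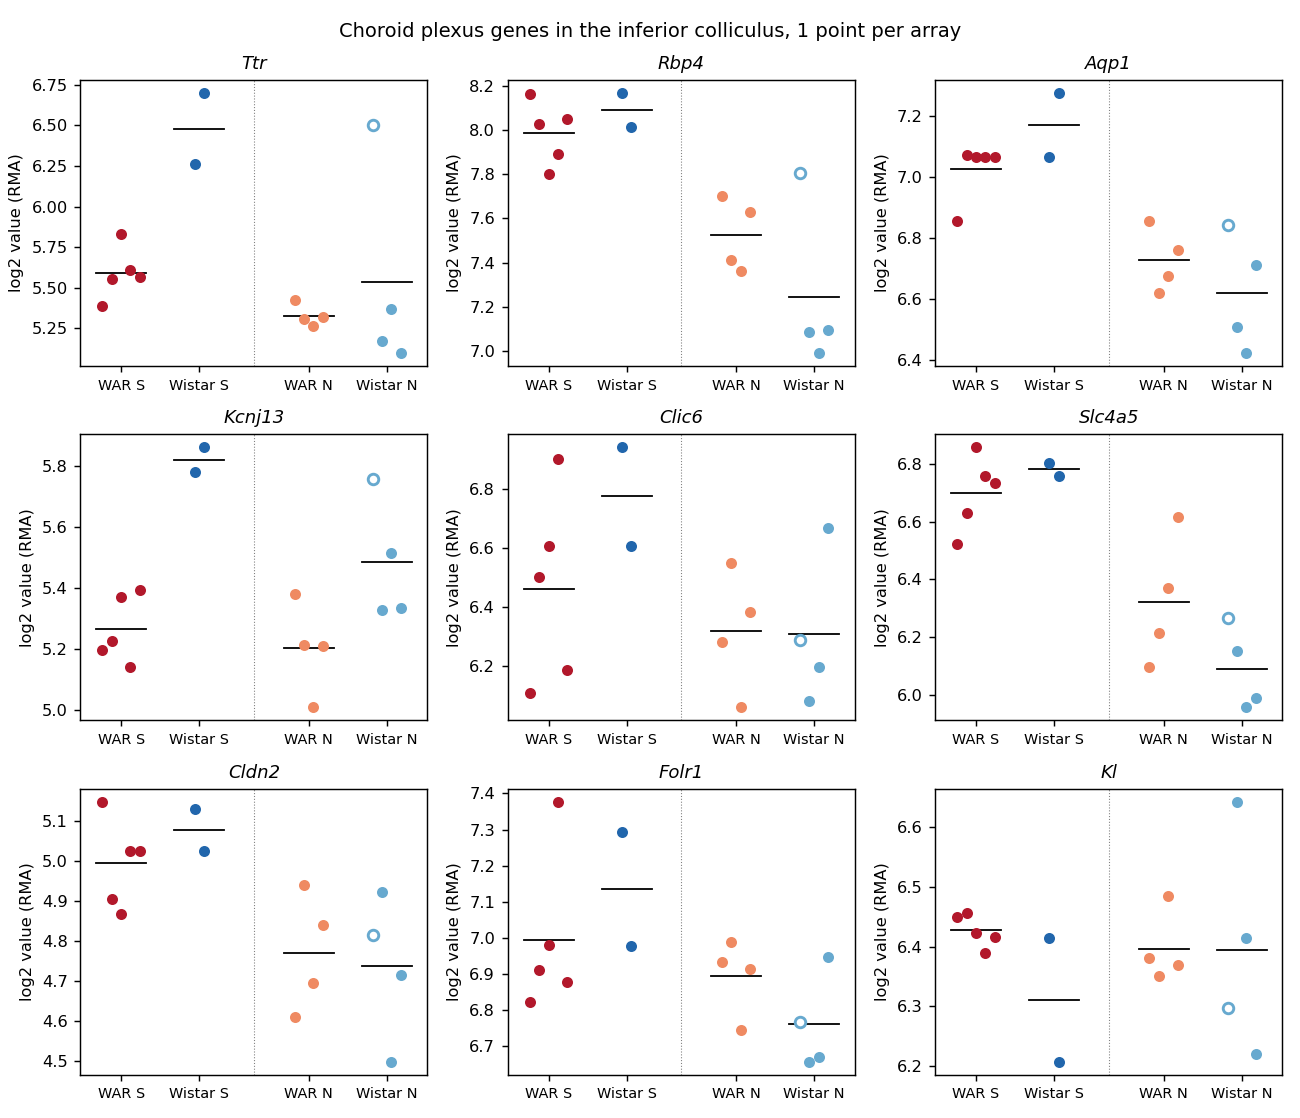
Log2 values (vertical axes, RMA) of the 9 measured genes on each array, with WAR left of Wistar in the stimulated (S) and the naïve (N) arrays; points are arrays, bars are group means, and the open point is Wistar N replicate 1. The 5 WAR S arrays lie below both Wistar S arrays for *Ttr* and *Kcnj13*, and the open point is the highest naïve array for *Ttr*, *Rbp4* and *Kcnj13*.

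*Rbp4* encodes the retinol binding protein that travels with transthyretin, and it was the brightest member. Its log2 value was 8.16, 8.03, 7.80, 7.89 and 8.05 in WAR S replicates 1 to 5, against 8.17 and 8.01 in Wistar S replicates 1 and 2. The stimulated groups overlapped, and the log2 fold change was −0.11 (SE 0.18, limma adjusted p = 1). The naïve values were 7.70, 7.41, 7.36 and 7.63 in WAR N replicates 1 to 4, against 7.80, 7.09, 6.99 and 7.09 in Wistar N replicates 1 to 4. All 4 WAR N arrays lay above 3 Wistar N arrays and below the remaining 1, replicate 1, with a log2 fold change of 0.28 (SE 0.15, limma adjusted p = 0.211). Without that array the log2 fold change was 0.47 (SE 0.10, limma adjusted p = 0.00169), a call for higher *Rbp4* in WAR N, and the strain effects of the 2 parts differed by −0.57 (SE 0.15, limma adjusted p = 0.0132). Liver and other tissues are also known to make this protein.

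*Kcnj13* encodes Kir7.1, a potassium channel of the apical membrane of the choroid plexus epithelium. Its log2 value was 5.20, 5.23, 5.37, 5.14 and 5.39 in WAR S replicates 1 to 5, against 5.78 and 5.86 in Wistar S replicates 1 and 2. As for *Ttr*, every WAR S array was below both Wistar S arrays. The log2 fold change was −0.56 (SE 0.12, 95% confidence interval −0.82 to −0.29, limma adjusted p = 0.0735), and by the exact permutation test p was again 0.0476. Without Wistar N replicate 1 the limma adjusted p was 0.0117. In label set 1 alone *Kcnj13* differed by −0.55 on the log2 scale (SE 0.14, limma adjusted p = 0.306).

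In naïve rats the log2 value of *Kcnj13* was 5.38, 5.21, 5.01 and 5.21 in WAR N replicates 1 to 4, against 5.76, 5.33, 5.51 and 5.33 in Wistar N replicates 1 to 4. WAR N replicate 1 lay within the Wistar N range, and the other WAR N arrays lay below it. The log2 fold change was −0.28 (SE 0.10, limma adjusted p = 0.0679, exact permutation p = 0.0857), and without Wistar N replicate 1 it was −0.19 (SE 0.09, limma adjusted p = 0.112). *Kcnj13* was thus the member with a negative strain difference in both parts and in both fits, at a level under the lower quartile of the arrays throughout.

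For the other genes of ion and water transport the strains overlapped in both parts, and none passed the test with all arrays. *Aqp1*, the water channel of the apical membrane, had log2 values of 6.86, 7.07, 7.07, 7.07 and 7.07 in WAR S replicates 1 to 5, against 7.07 and 7.28 in Wistar S replicates 1 and 2. Of the WAR S and Wistar S arrays, 4 shared 1 value, which the normalization of the stimulated arrays gives to many probe sets, and the log2 fold change was −0.15 (SE 0.11, limma adjusted p = 1). In naïve rats *Aqp1* ran from 6.62 to 6.86 in WAR N, against 6.42 to 6.84 in Wistar N, a log2 fold change of 0.11 (SE 0.10, limma adjusted p = 0.456).

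*Slc4a5*, which encodes the sodium bicarbonate cotransporter NBCe2, had log2 values of 6.52 to 6.86 in WAR S, a range that held both Wistar S values (6.80 and 6.76). Its naïve values were 6.09, 6.21, 6.37 and 6.61 in WAR N replicates 1 to 4, against 6.27, 6.15, 5.96 and 5.99 in Wistar N replicates 1 to 4. The groups overlapped with most WAR N arrays on the high side, and the log2 fold change was 0.23 (SE 0.11, limma adjusted p = 0.150), or 0.29 (SE 0.11, limma adjusted p = 0.0490) without Wistar N replicate 1. *Cldn2*, the claudin that forms cation pores in leaky epithelia, was the dimmest member. Its log2 values were 4.87 to 5.15 in WAR S, against 5.13 and 5.03 in Wistar S, and 4.61 to 4.94 in WAR N, against 4.50 to 4.92 in Wistar N, so the strains overlapped in both parts. The log2 fold change was −0.08 (SE 0.12) in stimulated and 0.03 (SE 0.10) in naïve rats.

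*Clic6*, a chloride intracellular channel protein, had log2 values of 6.11, 6.50, 6.61, 6.90 and 6.19 in WAR S replicates 1 to 5, against 6.94 and 6.61 in Wistar S replicates 1 and 2. *Folr1*, the folate receptor through which the choroid plexus carries folate into the cerebrospinal fluid, had 6.82, 6.91, 6.98, 7.38 and 6.88 in WAR S replicates 1 to 5, against 7.29 and 6.98 in Wistar S replicates 1 and 2. WAR S replicate 4 was the highest WAR S array for both genes, and the groups overlapped for both. Naïve values were 6.06 to 6.55 in WAR N, against 6.08 to 6.67 in Wistar N, for *Clic6*, and 6.74 to 6.99 in WAR N, against 6.66 to 6.95 in Wistar N, for *Folr1*. The log2 fold change was −0.31 (SE 0.21) for *Clic6* and −0.14 (SE 0.14) for *Folr1* in stimulated rats, and 0.01 (SE 0.17) for *Clic6* and 0.14 (SE 0.12) for *Folr1* in naïve rats.

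*Kl* encodes klotho, the co-receptor of fibroblast growth factor 23, which the kidney and the choroid plexus make. Its log2 values ran from 6.39 to 6.46 in WAR S, against 6.41 and 6.21 in Wistar S, and it was the 1 member with a positive difference in the stimulated arrays, a log2 fold change of 0.12 (SE 0.10, limma adjusted p = 1). In naïve rats it ran from 6.35 to 6.48 in WAR N and from 6.22 to 6.64 in Wistar N, with a log2 fold change of 0.0030 (SE 0.08).

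Counted over the list, 0 of 9 members passed an adjusted p of 0.05 by limma between WAR S and Wistar S, where 0.414% of all genes did, and 0 of 9 passed between WAR N and Wistar N, where 20.9% of all genes did. At an unadjusted p of 0.05, 2 of 9 members passed in stimulated rats (*Ttr* and *Kcnj13*, against 6.85% of all genes) and 1 of 9 in naïve rats (*Kcnj13*, against 34.5%). The groups did not overlap, with WAR lower, for 2 of 9 members in stimulated rats, against 8.22% of all genes, and for 0 of 9 in naïve rats, against 5.51% of all genes. Without Wistar N replicate 1, 2 of 9 members passed the adjusted threshold in stimulated rats (*Ttr* and *Kcnj13*), with 1.8% of all genes, and 2 of 9 in naïve rats (*Rbp4* and *Slc4a5*), with 41.1%.

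The difference was negative for 8 of 9 members in stimulated rats, beside 6442 of 14506 genes, with a median log2 fold change of −0.14 beside 0.01 over all genes. Of these 8 members, only *Ttr* and *Kcnj13* had a 95% confidence interval below 0. In naïve rats the difference was negative for 2 of 9 members, beside 6594 of 14506 genes, with a median of 0.03 beside 0.02 over all genes. The test of the difference between the strain effects called 0 of 9 members, with 0.103% of all genes called, and 0 of 9 members passed an unadjusted p of 0.05, against 15% of all genes. Its values were negative for 8 of 9 members, beside 7512 of 14506 genes, with a median of −0.28 beside −0.01 over all genes. Without Wistar N replicate 1 it called 2 of 9 members (*Ttr* and *Rbp4*), with 20.4% of all genes called.

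**Figure D2:**
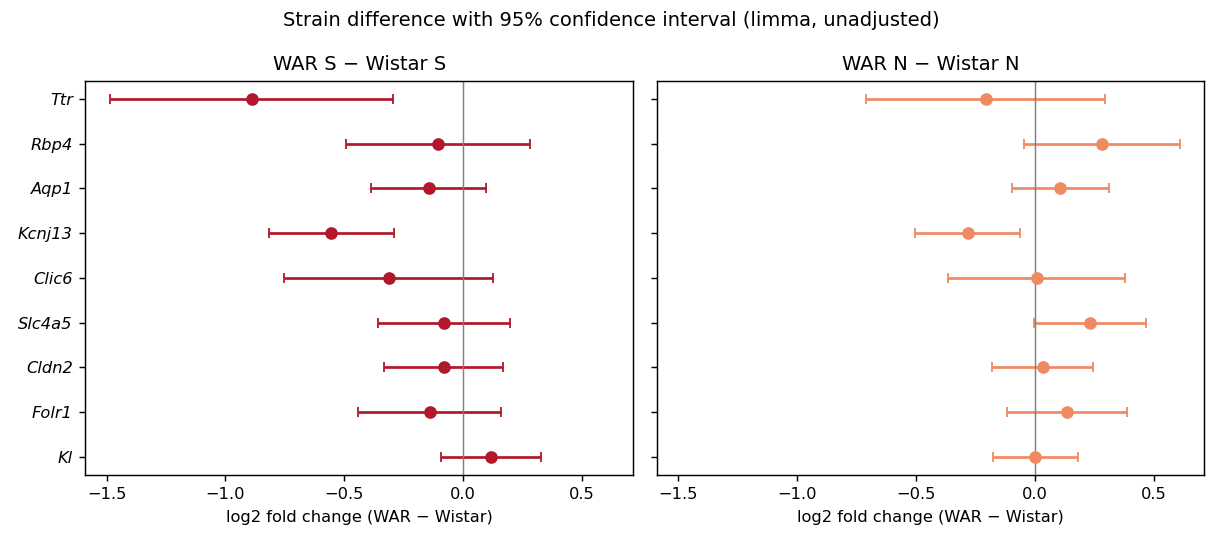
Log2 fold change of WAR over Wistar (horizontal axis) for each of the 9 measured genes in the stimulated (left) and the naïve (right) arrays; points are limma estimates over all 15 arrays and lines are unadjusted 95% confidence intervals. In the stimulated arrays the intervals of *Ttr* (−1.48 to −0.29) and *Kcnj13* (−0.82 to −0.29) lie below 0, and in the naïve arrays only that of *Kcnj13* (−0.50 to −0.06) does.

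Whether the members varied together from array to array was examined on the deviation of each array from the mean of its group. The stimulated (n = 7) and naïve (n = 8) arrays were taken apart. These deviations leave out the gap between the strains, and those of the Wistar S arrays mirror each other. *Ttr* lay below the lower quartile on 12 arrays, and *Kcnj13* and *Cldn2* on 15, so the share of background in their values is not known. Admixture of a tissue was therefore not tested. No joint variation of the list with *Ttr* was detected with these few arrays. Of the other 8 measured members, 4 had a positive Pearson r with *Ttr* in the stimulated arrays (median 0.02, beside −0.05 over all genes) and 5 in the naïve arrays (median 0.23, beside 0.18). In the stimulated arrays 0 of 8 were positively correlated with *Ttr* at an exact permutation p of 0.05, against 3.81% of genes, and in the naïve arrays 1 of 8 was, against 7.38%. No gene of the array passed after adjustment over all genes, with a smallest adjusted p of 0.596 in the stimulated and 0.352 in the naïve arrays. The orders within groups allow no exact permutation p below 0.0042 in the stimulated and 0.0017 in the naïve arrays. An adjusted p of 0.05 would thus need many genes at that floor. This adjustment can therefore not decide whether a gene goes with *Ttr*.

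*Kcnj13* was the member that went with *Ttr* in the naïve arrays (r = 0.82, exact permutation p = 0.0069, adjusted p = 0.386, Spearman rho = 0.69, exact permutation p = 0.0260). The value was 0.88 without the 2 arrays farthest from the median of *Ttr*, and 0.82 without Wistar N replicate 1. In the stimulated arrays r was 0.53 (exact permutation p = 0.229, adjusted p = 0.844, rho = 0.43, exact permutation p = 0.35) and 0.51 without the 2 farthest arrays. An r higher than that of *Kcnj13* was found for 12.2% of genes in the naïve and 14.9% in the stimulated arrays.

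*Rbp4* ran against *Ttr* in the stimulated arrays (r = −0.88, exact permutation p = 0.0083, adjusted p = 0.596, rho = −0.89, exact permutation p = 0.0125) and with it in the naïve arrays (r = 0.91, exact permutation p = 0.0799, adjusted p = 0.452, rho = 0.79, exact permutation p = 0.0573). The negative value was −0.94 without the 2 arrays farthest from the median of *Ttr*. The positive one rested on the array that stands apart, since r was 0.36 without the 2 farthest arrays and 0.20 without Wistar N replicate 1.

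**Figure D3:**
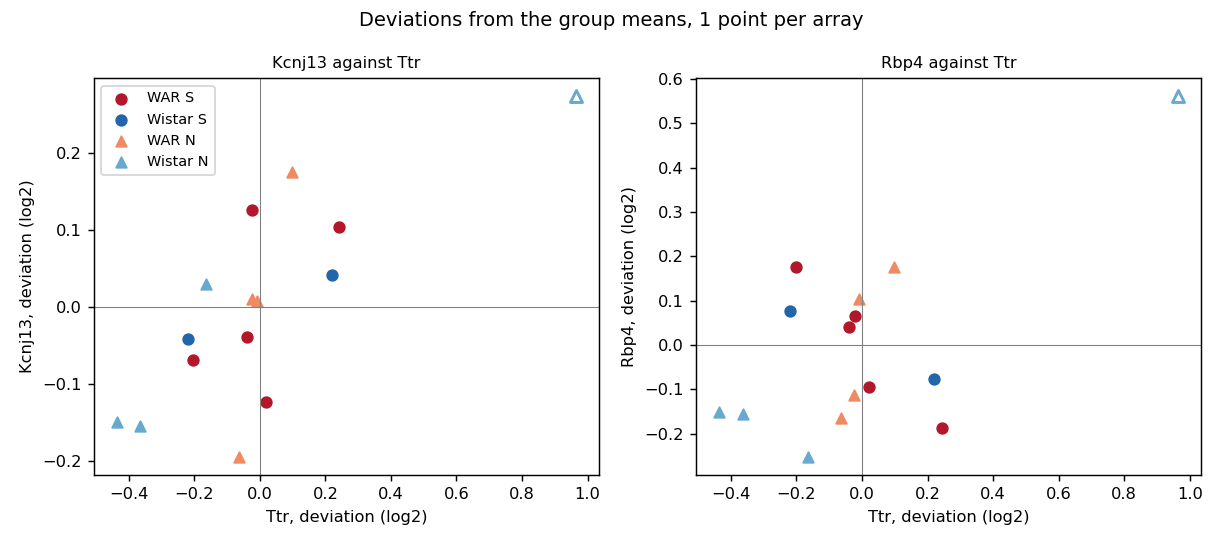
Deviation of each array from its group mean (log2) for *Kcnj13* (left) and *Rbp4* (right) against that of *Ttr*; circles are stimulated and triangles naïve arrays, and the open triangle is Wistar N replicate 1. Naïve arrays rise together for *Kcnj13* (r = 0.82), while for *Rbp4* the stimulated arrays slope down (r = −0.88) and the naïve slope (r = 0.91) rests on the open triangle.

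The remaining members had no relation with *Ttr* that passed the unadjusted threshold in either part. For *Aqp1*, r was 0.82 in the stimulated arrays, where 4 arrays share 1 value (exact permutation p = 0.200), and 0.62 in the naïve arrays (exact permutation p = 0.266), or −0.29 without Wistar N replicate 1. For *Slc4a5* it was 0.59 in the stimulated and 0.36 in the naïve arrays, and for *Kl* it was −0.76 in the stimulated and −0.31 in the naïve arrays. *Cldn2* (−0.78 in the stimulated and 0.09 in the naïve arrays), *Folr1* (−0.11 and −0.03) and *Clic6* (0.15 and −0.11) completed the list. Leaving out Wistar N replicate 1 gave naïve values of −0.39 for *Slc4a5*, 0.09 for *Kl*, −0.64 for *Cldn2*, −0.29 for *Folr1* and −0.32 for *Clic6*.

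Among the 36 pairs of measured members, 18 had a positive r in the stimulated and 25 in the naïve arrays, with medians of −0.04 and 0.18. In both parts 12 pairs were positive and 5 negative, and 3 pairs had an r above 0.5 in both. Without Wistar N replicate 1, 19 pairs were positive in the naïve arrays and their median was 0.05.

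The pair that moved together most closely did not include *Ttr*. *Folr1* and *Clic6* had r = 0.90 in the stimulated arrays (exact permutation p = 0.0042, rho = 0.96, exact permutation p = 0.0083) and r = 0.96 in the naïve arrays (exact permutation p = 0.0052, rho = 0.93, exact permutation p = 0.0104), or 0.94 and 0.95 without the 2 arrays farthest from the median of *Folr1*. It was picked out of the 36 pairs after their values were seen.

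**Figure D4:**
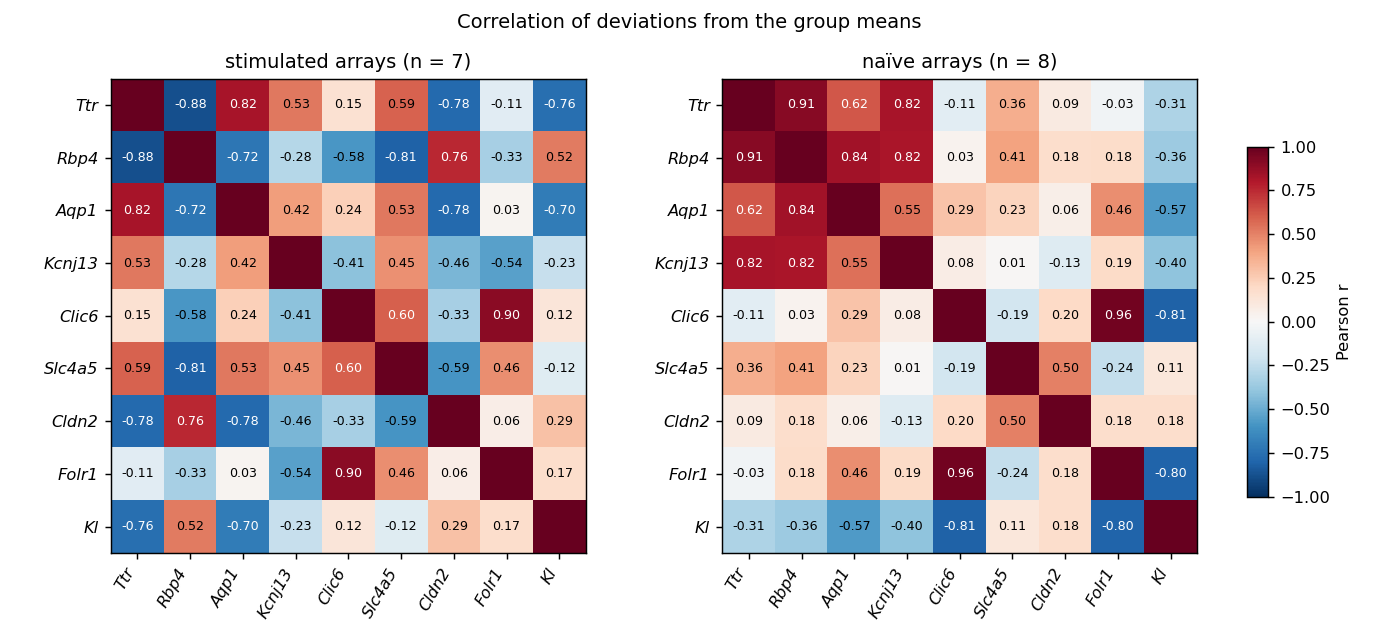
Pearson r between the measured members, from deviations of the arrays from their group means, in the stimulated (left, n = 7) and naïve (right, n = 8) arrays; red is positive, blue is negative, and the diagonal is 1. *Folr1* with *Clic6* is dark red in both panels (0.90 and 0.96), whereas *Ttr* with *Rbp4* is blue in the stimulated (−0.88) and red in the naïve arrays (0.91).

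Both genes of this pair moved with the mean of 10 markers of ependymal cells, the ciliated cells that line the ventricles. For *Clic6*, r with that mean was 0.96 in the stimulated (exact permutation p = 0.0083, rho = 0.93, exact permutation p = 0.0167) and 0.89 in the naïve arrays (exact permutation p = 0.0052, rho = 0.83, exact permutation p = 0.0226). For *Folr1* it was 0.88 in the stimulated (exact permutation p = 0.0125, rho = 0.86, exact permutation p = 0.0417) and 0.83 in the naïve arrays (exact permutation p = 0.0330, rho = 0.71, exact permutation p = 0.0625). Without the 2 arrays farthest in the ependymal mean, r ran from 0.69 to 0.98 over these 4 relations, and without Wistar N replicate 1 the naïve values were 0.90 for *Clic6* and 0.84 for *Folr1*. *Ttr* had r = 0.20 with the ependymal mean in the stimulated and 0.04 in the naïve arrays, and the naïve value was −0.52 without Wistar N replicate 1. With the mean of 12 pinealocyte markers, r of *Clic6* was 0.83 in the stimulated arrays (exact permutation p = 0.0375). In the naïve arrays it was −0.79 (exact permutation p = 0.0486). With the mean of 7 red blood cell markers its naïve r was −0.91 (exact permutation p = 0.0122). *Kl* ran against the ependymal mean in the naïve arrays (r = −0.75, exact permutation p = 0.0365), with −0.06 in the stimulated arrays. All of these were among 180 relations of members with gene lists, none of which passed Benjamini-Hochberg adjustment over the 180 (smallest adjusted p 0.234). The smallest exact permutation p that the orders allow, 0.0042 in the stimulated and 0.0017 in the naïve arrays, limits this adjustment too.

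**Figure D5:**
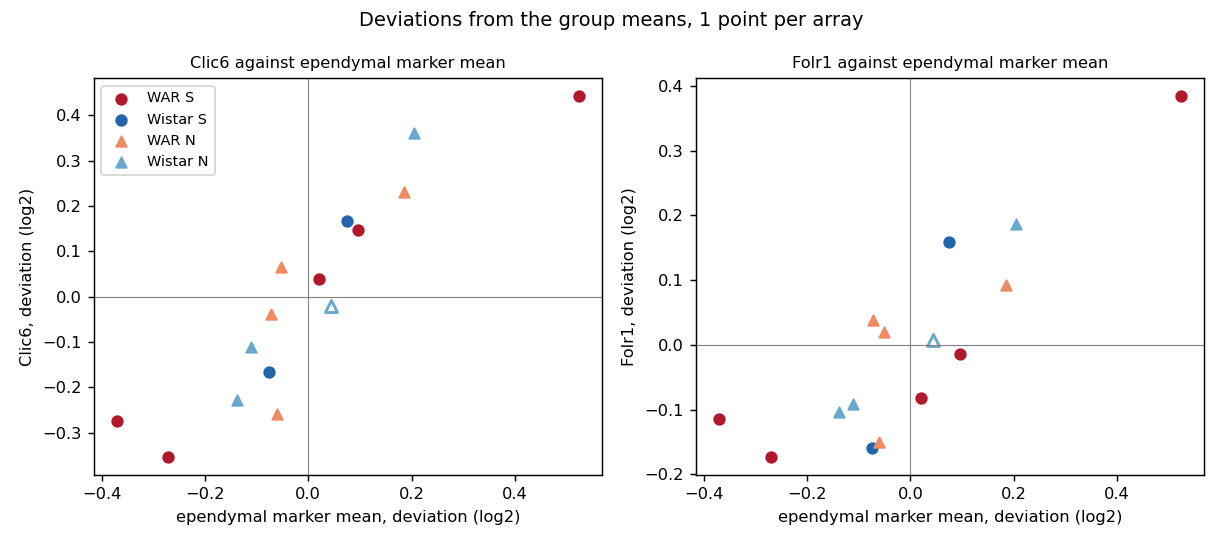
Deviation of each array from its group mean (log2) for *Clic6* (left) and *Folr1* (right) against that of the mean of 10 ependymal markers; circles are stimulated and triangles naïve arrays, and the open triangle is Wistar N replicate 1. Both genes rise with the ependymal mean, with WAR S replicate 4 at the upper right of each panel.

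In the stimulated arrays *Clic6* and *Folr1* also moved with the mean of 29 other genes of the choroid plexus, a list described further on. Here r was 0.93 for *Clic6* (exact permutation p = 0.0125, rho = 0.96, exact permutation p = 0.0083) and 0.75 for *Folr1* (exact permutation p = 0.0042, rho = 0.93, exact permutation p = 0.0083), or 0.74 for *Clic6* and 0.69 for *Folr1* without the 2 arrays farthest in that mean. The naïve values were −0.12 for *Clic6* and −0.07 for *Folr1* with all arrays, and −0.14 for *Clic6* and −0.15 for *Folr1* without Wistar N replicate 1. *Slc4a5* was the member that moved with this mean in the naïve arrays (r = 0.82, exact permutation p = 0.0017, rho = 0.93, exact permutation p = 0.0035). Its naïve r was 0.94 without the 2 arrays farthest in that mean and 0.85 without Wistar N replicate 1. In the stimulated arrays r of *Slc4a5* was 0.76 (exact permutation p = 0.142). *Ttr* had r = 0.45 with the same mean in the stimulated arrays (exact permutation p = 0.246) and 0.69 in the naïve arrays (exact permutation p = 0.285), where the value was −0.72 without Wistar N replicate 1. None of the *Ttr* relations with this list passed the unadjusted threshold.

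In the naïve arrays *Rbp4* moved with the mean of 12 markers of meningeal fibroblasts, the cells of the brain's coverings (r = 0.98, exact permutation p = 0.0069, rho = 0.83, exact permutation p = 0.0312), and r was 0.97 without Wistar N replicate 1. *Aqp1* moved with this mean too (r = 0.79, exact permutation p = 0.0052, rho = 0.76, exact permutation p = 0.0295), with 0.71 without that array. For *Kcnj13* r was 0.79 (exact permutation p = 0.0625), or 0.49 without that array. For *Ttr* r with this mean was 0.96 (exact permutation p = 0.0712, rho = 0.90, exact permutation p = 0.0660), which did not pass, and it rested on Wistar N replicate 1, without which it was 0.24. With the mean of 12 markers of brain endothelial cells, *Ttr* had a naïve r of 0.88 (exact permutation p = 0.142), or −0.07 without that array. In the stimulated arrays the values for the meningeal mean were 0.26 for *Ttr* (exact permutation p = 0.567) and −0.33 for *Rbp4* (exact permutation p = 0.537). They were 0.38 for *Aqp1* (exact permutation p = 0.6) and 0.31 for *Kcnj13* (exact permutation p = 0.517). The meningeal mean was 7.43 in Wistar N replicate 1, against a median of 6.98 over the 4 Wistar N arrays. On the WAR N arrays this mean was 7.31 to 7.43, while *Ttr* was 5.26 to 5.43 there and 6.50 in Wistar N replicate 1. A part of meningeal tissue in the *Ttr* values was not tested.

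The genes whose deviations were most like those of *Ttr*, by the lower of the r values of the 2 parts, were *Pllp*, *Or10d5*, *Syngr1*, *Ube2z* and *Or56b1*. For *Pllp*, which encodes the myelin protein plasmolipin, r was 0.96 in the stimulated and 0.94 in the naïve arrays. This order rested on Wistar N replicate 1. Without it the naïve r was −0.05 for *Pllp*, 0.46 for *Or10d5*, 0.34 for *Syngr1*, 0.20 for *Ube2z* and 0.10 for *Or56b1*, and these genes ranked from 474 to 4042. *Or10d5* and *Or56b1* are named as olfactory receptors, *Syngr1* encodes a synaptic vesicle protein and *Ube2z* a ubiquitin conjugating enzyme, and none of these 5 genes is in a list used here. With all arrays the members ranked at 404 of 14450 genes for *Aqp1*, 746 for *Kcnj13*, 1492 for *Slc4a5* and from 5177 to 13525 for the other 5 members. When Wistar N replicate 1 was left out, *Kcnj13* ranked at 267 and the other members from 7193 to 14239.

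A second list held other genes of the choroid plexus, of which 29 were measured. Of these, 0 passed the adjusted threshold in stimulated rats, beside 0.414% of all genes, with a median log2 fold change of −0.01, and the smallest p was that of *Slc13a4*, a sulfate transporter (log2 fold change −0.37, SE 0.09, limma adjusted p = 0.143). In naïve rats 2 were higher and 3 lower in WAR, 5 of 29 beside 20.9% of all genes, a share near that of all genes and no result about the list, with a median of 0.06. *Slc31a1*, a copper transporter (0.87, SE 0.21, limma adjusted p = 0.0115), and *Kcne2*, a potassium channel subunit (0.41, SE 0.11, limma adjusted p = 0.0138), were higher in WAR N. *Cdkn1c*, a cyclin dependent kinase inhibitor (−0.70, SE 0.14, limma adjusted p = 0.00430), and *Msx1*, a homeodomain factor (−0.45, SE 0.11, limma adjusted p = 0.0103), were lower. All of these 4 genes passed again without Wistar N replicate 1, and 10 of 29 passed in naïve rats, beside 41.1% of all genes. *Slc13a4* (limma adjusted p = 0.0358) was then among 2 of 29 genes lower in stimulated rats, beside 1.8% of all genes. The summed unlogged level of these 29 genes was 18932 to 20311 on WAR S and 18568 to 20325 on Wistar S arrays. For the 9 measured members it was 877 to 966 on WAR S and 1014 to 1065 on Wistar S arrays. Whether other cells of the IC make the transcripts of this list was not tested, so it is not a measure of choroid plexus content.

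Transthyretin carries thyroxine, and 15 genes of thyroid hormone transport and action were measured. In stimulated rats 0 passed, with *Klf9*, a target of the hormone, at a log2 fold change of 0.35 (SE 0.12, limma adjusted p = 0.368). In naïve rats 1 was higher and 2 were lower in WAR, 3 of 15 beside 20.9% of all genes, so that this count too is near the background. *Thrb*, a receptor of the hormone, was higher (0.20, SE 0.07, limma adjusted p = 0.0409), while *Dio2*, the enzyme that makes active hormone from thyroxine, and *Hr*, a corepressor, were lower (−1.06, SE 0.22, limma adjusted p = 0.00519 for *Dio2*, and −0.27, SE 0.08, limma adjusted p = 0.0289 for *Hr*). The log2 value of *Dio2* was 6.63, 6.70, 6.66 and 6.61 in WAR N replicates 1 to 4, against 6.87, 8.26, 7.98 and 7.73 in Wistar N replicates 1 to 4. Wistar N replicate 1, the array with high *Ttr*, thus lay just above the WAR N arrays for *Dio2*. Without it the log2 fold change of *Dio2* was −1.34 (SE 0.13, limma adjusted p = 3.35e-06), *Hr* and *Thrb* passed again, and 5 of 15 genes passed in naïve rats, beside 41.1% of all genes.

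Of 16 genes of retinoid handling, 0 passed in stimulated rats, where *Cyp26b1*, which breaks down retinoic acid, had the smallest p (log2 fold change −0.67, SE 0.17, limma adjusted p = 0.136). In naïve rats 4 of 16 passed, again near the 20.9% of all genes. *Cyp26b1* (−0.82, SE 0.14, limma adjusted p = 0.00219) and *Aldh1a1*, which makes retinoic acid (−1.45, SE 0.30, limma adjusted p = 0.00523), were lower in WAR. *Crabp1*, a binding protein of retinoic acid (0.84, SE 0.24, limma adjusted p = 0.0215), and *Cyp26a1* (0.20, SE 0.06, limma adjusted p = 0.0343) were higher. The log2 value of *Aldh1a1* was 9.32 to 9.80 in WAR N and 9.72, 11.06, 11.44 and 11.56 in Wistar N replicates 1 to 4, with replicate 1 within the WAR N range. Without that array its log2 fold change was −1.85 (SE 0.16, limma adjusted p = 7.86e-07) and the other 3 genes passed again. In naïve rats 6 of 16 genes then passed, beside 41.1% of all genes. In stimulated rats 1 of 16 did, *Cyp26b1* (limma adjusted p = 0.0475), beside 1.8% of all genes.

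Markers of other cells that a dissection of the IC could hold were set beside the members, and their counts are to be read against the 0.414% of all genes that passed in stimulated and the 20.9% that passed in naïve rats. None of 12 markers of pinealocytes passed in either part, and their summed unlogged level was 1080 to 1146 on WAR S against 1092 to 1138 on Wistar S arrays, and 1026 to 1151 on WAR N against 1011 to 1112 on Wistar N arrays. Of 10 ependymal markers 0 passed in stimulated rats, with sums of 1733 to 3510 on WAR S and 1979 to 2220 on Wistar S arrays, and 3 were higher in WAR N (*Rarres2*, *Dnah12* and *Cfap126*), with sums of 2118 to 2568 on WAR N and 1366 to 1696 on Wistar N arrays.

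Of 12 meningeal markers, 1 was lower in WAR S, *Slc47a1*, a transporter of organic cations (log2 fold change −0.68, SE 0.09, limma adjusted p = 0.00554). Its log2 value was 5.06 to 5.20 in WAR S, against 5.60 and 6.03 in Wistar S. In naïve rats 3 meningeal markers were higher in WAR (*Ogn*, *Dcn* and *Ptgds*) and 1 was lower (*Col1a2*). The summed level of the list was 4333 to 6228 on WAR S and 4750 to 4929 on Wistar S arrays, and 4653 to 5581 on WAR N and 2664 to 4895 on Wistar N arrays.

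Of 12 cerebellar markers 0 passed in stimulated rats, where *Gabra6*, a GABA receptor subunit of granule cells, had the smallest p (log2 fold change −0.68, SE 0.15, limma adjusted p = 0.0756), and its log2 value was 5.44 to 5.66 in WAR S, against 6.01 and 6.51 in Wistar S. The sums of this list were 1723 to 2164 on WAR S and 1969 to 2049 on Wistar S arrays, and 1543 to 2081 on WAR N and 1747 to 1994 on Wistar N arrays, with 2 markers (*Slc1a6* and *Barhl1*) lower in WAR N.

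Of 7 markers of red blood cells, 1 was lower in WAR S (*Hbb*, log2 fold change −1.17, SE 0.20, limma adjusted p = 0.0212) and 3 in WAR N, with sums of 2246 to 2732 on WAR S and 3604 to 4489 on Wistar S arrays, and 2170 to 2640 on WAR N and 3181 to 4439 on Wistar N arrays. Of 12 endothelial markers, 3 were higher in WAR S and 6 in WAR N, with sums of 4580 to 6692 on WAR S and 3280 to 3404 on Wistar S arrays, and 4465 to 6623 on WAR N and 2816 to 5973 on Wistar N arrays. Of 10 neuronal markers, 0 passed in stimulated rats and 4 were lower in WAR N (*Slc32a1*, *Gad1*, *Slc17a6* and *Pvalb*), with sums of 22329 to 26268 on WAR S and 23305 to 24661 on Wistar S arrays, and 21512 to 22934 on WAR N and 20926 to 26693 on Wistar N arrays. The summed red blood cell markers were lower, and the summed endothelial markers higher, on all WAR S arrays than on both Wistar S arrays, and the part of any of these cells in the values of *Ttr* and *Kcnj13* was not tested. In naïve rats without Wistar N replicate 1, 41.1% of all genes passed, with 3 of 10 ependymal, 5 of 12 meningeal, 1 of 12 pinealocyte, 7 of 12 cerebellar, 4 of 7 red blood cell, 10 of 12 endothelial and 5 of 10 neuronal markers. In stimulated rats without that array, 1.8% of all genes passed. *Gabra6* (limma adjusted p = 0.0282) was then called too, and 2 of 7 red blood cell and 6 of 12 endothelial markers passed.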

How the data were processed

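RNA of the IC was hybridized to 15 rat gene arrays (Affymetrix Gene 1.0 ST), and groups were taken from the label of each array. Values were deposited on the log2 scale after RMA, in which the authors corrected background, normalized by quantiles and summarized probe sets. The RMA version and the genome build are not given in the sources used here. The number of arrays limits the precision. All 15 columns of sample values were used. Of 29214 probe sets, 15310 carried 1 gene symbol in the platform annotation, 323 carried several and 13581 carried none, and only those with 1 symbol were used. The brightest probe set was kept for 527 genes with several.

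Strains were compared with limma 3.58.1 under R 4.3.3 (lmFit, then eBayes, with 4 group means fitted to the 15 arrays, Benjamini-Hochberg adjustment over 14506 genes, threshold 0.05), and single genes also with 2-sided exact permutation tests. The paper's methods used SAM with a fold change of at least 2 and p of at most 0.05, and these thresholds are an alternative. With limma estimates and unadjusted p, 0 of 9 members met them in stimulated rats. *Ttr* fell short of the fold threshold there, with a ratio of WAR S to Wistar S of 0.54. The paper lists *Ttr* as past that threshold on its stimulated arrays, and the reason for this gap was not tested. p-values measure the spread between these arrays, which may be technical. Correlations with *Ttr* used deviations from group means, with exact permutation p over the orders within groups. Both steps were first tested on simulated data.

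The members and gene lists were chosen with earlier results of these data known. Named genes were all members, up to 4 of each other list by the smallest p among those past the threshold, or 1 where none passed, and the 5 genes most like *Ttr*. Alternatives were the label set as a block or 1 set only, a replicate block, only the compared groups, the dimmest genes left out, all probe sets, array weights, trended and robust eBayes, cyclic loess, the mean of probe sets, the ratio of unlogged means, other centring of the correlations, and each array left out. The gene lists, their relations with members and the genes most like *Ttr* were also recomputed without Wistar N replicate 1, a choice made after seeing the data. Promoters came from the RefSeq table of GRCr8 and were searched with Python 3.11.15.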

Additional observations from a re-analysis of the deposited data

Results flagged for a closer look

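The highest or lowest array was checked in the 27 groups of 4 or 5 arrays of the 9 measured genes, and 3 stood apart from the rest of their group by Dixon's criterion, which chance meets in about 1 in 20 groups. *Rbp4* was at a log2 value of 7.80 in Wistar N replicate 1, against 6.99 to 7.09 in the other Wistar N arrays, the array that is also highest for *Ttr* and *Kcnj13*. *Aqp1* was at 6.86 in WAR S replicate 1, against 7.07 in the other WAR S arrays, of which 3 hold the same value. *Folr1* was at 7.38 in WAR S replicate 4, against 6.82 to 6.98 in the other WAR S arrays, and *Clic6* and the ependymal markers were highest on the same WAR S array.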

How the results depend on the processing

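*Ttr* and *Kcnj13* were lower in WAR S under every alternative that tested them (the one without the dimmest genes leaves both out). For both genes all WAR S arrays lay below both Wistar S arrays, so leaving out or reweighting arrays could not turn the direction. This steadiness therefore adds no support. Counts of members called moved because single genes crossed the threshold. When each model held the compared groups alone, 2 members were called in stimulated rats, beside 1.89% of all genes. They were *Ttr* (−0.89, limma adjusted p = 0.0426) and *Kcnj13* (adjusted p = 0.0299). With eBayes trend and robust 1 was called in stimulated and 1 in naïve rats, both *Kcnj13*, beside 0.441% of all genes in stimulated and 20.9% in naïve rats. Array weights gave Wistar N replicate 1 the lowest weight of all arrays (0.10). With them 2 members were called in stimulated rats (*Ttr* −0.93, limma adjusted p = 1.77e-04), beside 9.88% of all genes. In naïve rats 1 was called (*Rbp4* 0.48), beside 32.2% of all genes. For the difference between the strain effects 2 were called (*Ttr* −0.95, limma adjusted p = 0.00742), beside 23.1% of all genes. The last 2 counts do not exceed the background. *Ttr* (0.0246) and *Kl* (−0.0233) turned in naïve rats. With cyclic loess 1 was called in naïve rats (*Kcnj13* −0.34, adjusted p = 0.0325), beside 21.6% of all genes, and *Clic6* (−0.0720), *Cldn2* (−0.0026) and *Kl* (−0.0783) turned. In label set 1 only, *Aqp1* (−0.0379) and *Clic6* (−0.0635) turned in naïve rats. Over all genes, 60 passed in stimulated rats, 3037 in naïve rats and 15 for the difference, and over the alternatives, arrays left out included, these counts ran from 0 to 1433, 217 to 5968 and 0 to 3353. The causes were not tested.

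Replicate numbers did not pair the samples, since arrays of the same number had correlated deviations of 0.03 and −0.05 in stimulated and −0.31 to 0.06 in naïve rats. With a replicate block 0 members were called, with 0 genes called in stimulated and 1561 in naïve rats, and *Rbp4* turned in stimulated rats (0.0025).

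With each array left out, between 0 and 2 members were called in each of the 3 comparisons, above 0 only without Wistar N replicate 1. Without that array 1.8% of all genes passed in stimulated rats, 41.1% in naïve rats and 20.4% for the difference between the strain effects. The log2 fold change of *Ttr* ran from −1.11 to −0.67 in stimulated and −0.35 to 0.12 in naïve rats, and its difference between the strain effects from −1.0045 to −0.46. *Folr1* in stimulated rats (−0.30 to 0.0172), and in naïve rats *Clic6* (−0.0678 to 0.13), *Cldn2* (−0.0464 to 0.0949) and *Kl* (−0.0547 to 0.0861), spanned 0. The count of members positively correlated with *Ttr* was 2 in both parts without centring on the group means. Without the 2 arrays farthest from the median of *Ttr* it was 1 in the stimulated and 0 in the naïve arrays, where 48 orders remain. Centred on group and label set it was 0 in the naïve arrays, where 16 orders cannot reach 0.05. With 1 array left out it was 0 to 1 in the stimulated arrays, 1 without either Wistar S array, and 1 to 2 in the naïve arrays, 2 without Wistar N replicate 3 or 4.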
